A study of Mus musculus with 20 samples.

Results

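The genes described here are 9 enzymes of arginine, creatine and polyamine metabolism, picked by symbol from a kidney gene table of 55822 genes: Gatm, Gamt, Ass1, Asl, Agmat, Oat, Odc1, Srm and Sat1. All 9 were found, and all 9 passed the filter on low counts. Their levels were compared between mice given puberulic acid, a tropolone made by some Penicillium moulds, and controls given phosphate-buffered saline (PBS). All animals were C57BL/6J males aged 8 weeks, from an inbred strain, and no transgene is named. They received 6 daily administrations, of PBS or of puberulic acid at 1 mg per day, and kidneys were taken on day 7 after a day without dosing. On the route the labels differ, one text naming oral dosing and the other gavage or an intraperitoneal dose. Each group has 5 RNA-seq libraries. The 2 groups given lots of the supplement Choleste-Help are not analysed here. The labels number the samples within a group but do not say which animal each came from, so p-values measure the spread between these samples.

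Arginine is the meeting point of these pathways. In the kidney, Ass1 and Asl make arginine from citrulline taken up from blood, mainly in the proximal tubule. Gatm joins arginine and glycine to form guanidinoacetate, which Gamt methylates to creatine, a step best known from liver. Ornithine, which can be formed from arginine, goes either to glutamate and proline through Oat or to the polyamine putrescine through Odc1. Srm extends putrescine to spermidine, and Sat1 acetylates spermidine and spermine so that they can be exported or oxidised. In mice Odc1 is strongly expressed in the male kidney under androgen control.

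Total estimated counts ran from 18409877 to 24705587 per library. Levels are in CPM, the counts of a gene relative to its library's total, here with the library totals corrected by the TMM method (trimmed mean of M-values), and a gene was called where the adjusted p was under 0.05. The 10 proximal tubule markers (Lrp2, Cubn, Slc34a1 and others) were all present in the controls and summed to 8759 to 12109 CPM there, against 594 to 1433 CPM with puberulic acid, and all 10 were called lower. Puberulic acid replicate 1 had the 1433 CPM, and the other 4 libraries 594 to 705 CPM. Summed levels of 6 macrophage markers ran from 64.7 to 123 CPM in controls and 126 to 353 CPM with puberulic acid (4 of 6 called higher), and those of 4 fibroblast and pericyte markers from 92.5 to 142 CPM and 386 to 1390 CPM (4 of 4 higher). Puberulic acid replicate 1 was the lowest treated library for both, the other 4 being at 216 to 353 CPM and 529 to 1390 CPM. No marker of these 3 lists was at 0 in every library. The 3 thick ascending limb markers summed to 2645 to 4919 CPM in controls and 2924 to 5507 CPM with puberulic acid (1 of 3 lower, none higher), while all 4 markers of collecting duct principal cells were lower. Puberulic acid replicate 3 stood apart in adipocyte and adrenal genes, with Cidec at 32.1 CPM and Star at 30.0 CPM. The calls of the 9 enzyme genes were the same without this library. In whole kidney RNA, fewer cells of a type and less RNA per cell cannot be told apart.

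With puberulic acid, 6 of the 9 genes fell, 2 rose and 1 was not called. Both creatine enzymes, both enzymes of arginine synthesis, Agmat and Odc1 were lower, while Srm and Sat1 were higher. Of all 16266 genes tested, 31.1% were called lower and 34.2% higher. The share of lower calls among the 9 was above this background. Higher calls, 2 of 9, were too few to be read against it. The 9 were chosen with earlier results of these data known, so these shares are a description only. No value of the 5 treated samples overlapped the controls for any called gene, 2 lying above and 6 below. Over all genes tested, 26.1% had ranges above and 24% below the controls. The median log2 fold change of the 9 was -1.71, against 0.05 for all genes tested. Summed over the 9 genes, levels were 4440.4 to 7258 CPM in controls and 1432 to 1919.9 CPM with puberulic acid. The plot of levels by sample shows each library.

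**Figure D1:**
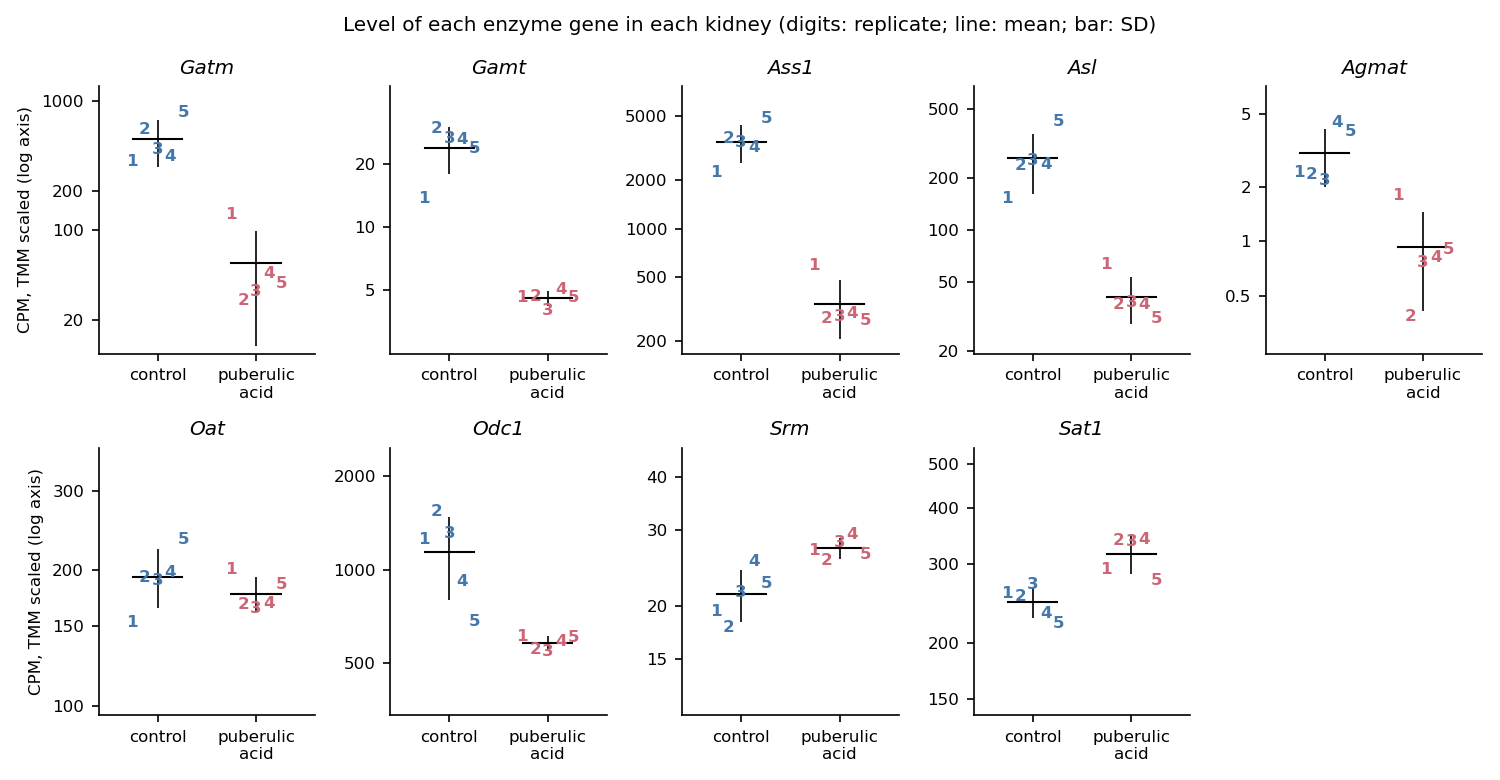
TMM-scaled CPM (log axis, a separate scale in each panel) of the 9 genes in each library. Digits are replicate numbers in control (blue) and puberulic acid (red), horizontal lines are means and vertical bars SD (n = 5). Treated values lie below all controls for Gatm, Gamt, Ass1, Asl, Agmat and Odc1, above them for Srm and Sat1, and overlap for Oat. Puberulic acid replicate 1 is the highest treated library for Gatm, Ass1, Asl, Agmat, Oat and Odc1.

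Of the 9 genes, the creatine enzymes and the arginine-making enzymes showed the strongest losses. Promoters of those with an entry in RefSeq are shown here because these genes fell together. Each run is the 250 bases before the start of transcription, on the gene's strand, in build GRCm38.p6. Capitals mark exact matches on either strand to the E-box CACGTG, the CCAAT box and the GC box GGGCGG, which on the other strand read ATTGG and CCGCCC for the last 2.
Gatm (chr2:122611278-122611527, minus strand): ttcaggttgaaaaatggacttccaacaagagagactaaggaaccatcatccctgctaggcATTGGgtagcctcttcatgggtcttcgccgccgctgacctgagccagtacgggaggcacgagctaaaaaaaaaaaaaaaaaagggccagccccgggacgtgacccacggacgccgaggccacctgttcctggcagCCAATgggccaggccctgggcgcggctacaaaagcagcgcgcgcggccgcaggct
Gamt (chr10:80261013-80261262, minus strand): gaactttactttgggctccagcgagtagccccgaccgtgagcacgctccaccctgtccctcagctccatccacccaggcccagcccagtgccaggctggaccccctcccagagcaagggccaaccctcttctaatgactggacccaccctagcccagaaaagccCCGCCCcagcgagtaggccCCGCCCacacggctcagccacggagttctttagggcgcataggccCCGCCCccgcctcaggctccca
Ass1 (chr2:31470020-31470269, plus strand): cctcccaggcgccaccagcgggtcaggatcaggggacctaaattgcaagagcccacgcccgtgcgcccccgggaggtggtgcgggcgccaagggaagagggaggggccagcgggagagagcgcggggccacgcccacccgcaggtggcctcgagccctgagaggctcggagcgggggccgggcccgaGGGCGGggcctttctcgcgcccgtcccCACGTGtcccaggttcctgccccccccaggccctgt
The Gatm window holds 2 CCAAT boxes and no GC box. Gamt holds 3 GC boxes within 86 bases of the start, and Ass1 holds 1 GC box and 1 E-box, the latter 36 to 31 bases before the start. Over all 32851 RefSeq promoter windows, 33.8% hold CCAAT, 32.7% GGGCGG and 6.02% CACGTG. Of the 9 genes 7 had an entry, and Asl and Srm did not. Of the 7, Ass1 alone had CACGTG. TGATGCAA, a C/EBP-ATF element (0.791% of windows), and CAAAGTCCA, an HNF4 half-site arrangement (0.384%), were in none of the 7. These matches describe the letters in the windows and are not evidence of binding.

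Gatm encodes glycine amidinotransferase, the enzyme that commits arginine to creatine synthesis. Its level was 338, 598, 419.7, 371 and 815 CPM in control replicates 1 to 5, and 131, 28.5, 33.7, 45.9 and 38.5 CPM in puberulic acid replicates 1 to 5. Every treated sample was below every control, although replicate 1 was well above the other 4 treated samples. The means were 508 ± 199 and 55.6 ± 42.9 CPM (SD, n = 5 each), a log2 fold change of -3.19 ± 0.44 (SE), or 9.14-fold lower (edgeR quasi-likelihood test, Benjamini-Hochberg adjusted p = 5.33e-05). Without puberulic acid replicate 1 the fold was 14.1 (log2 -3.82, adjusted p = 4.4e-07 by the same edgeR test).

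Gamt, the methyltransferase that completes creatine, was a low-level transcript in these kidneys. Controls stood at 13.8, 29.5, 26.4, 26.2 and 23.8 CPM and treated samples at 4.60, 4.64, 3.98, 5.05 and 4.60 CPM. Control replicate 1 was the lowest control, and the treated values lay within a narrow band under it. Gamt was 5.22-fold lower, at log2 -2.38 ± 0.19 (edgeR quasi-likelihood test, Benjamini-Hochberg adjusted p = 6.02e-07). Creatine uptake and use showed smaller differences. Slc6a8, the creatine transporter, changed by log2 -0.56 (214.8 to 145 CPM, edgeR adjusted p = 0.0104) and Ckb, brain-type creatine kinase, by -0.59 (134 to 88.9 CPM, edgeR adjusted p = 0.0166), but both had overlapping ranges and neither was called with total-count scaling (-0.06 and -0.08). Ckmt1, the mitochondrial kinase, was not called (-0.07), and Ckm and Ckmt2, the muscle forms, were too low to test.

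Ass1, argininosuccinate synthase, joins citrulline and aspartate and is a characteristic transcript of the proximal tubule. It was counted at 2257, 3665, 3426, 3203 and 4832 CPM in controls and 589, 277, 285, 297 and 269 CPM with puberulic acid. The lowest control was well above the highest treated sample, and replicate 1 was again the highest treated sample. The group means were 3477 ± 927 and 343 ± 138 CPM, which is 10.1-fold lower at log2 -3.34 ± 0.27 (edgeR quasi-likelihood test, Benjamini-Hochberg adjusted p = 7.61e-07).

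Asl, argininosuccinate lyase, releases arginine in the next step. Control levels were 152, 235, 252, 237 and 424 CPM, and treated levels 62.8, 36.9, 38.2, 36.9 and 30.9 CPM. The groups did not overlap, with control replicate 5 far above the other controls. Asl was 6.32-fold lower, at log2 -2.66 ± 0.27 (edgeR quasi-likelihood test, Benjamini-Hochberg adjusted p = 4.31e-06). The summed level of the 10 proximal tubule markers was also lower in all 5 treated libraries, as given above, and its part in the lower levels of these 4 genes, or of Agmat and Odc1, was not tested.

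Agmat, annotated as agmatinase, which turns decarboxylated arginine (agmatine) into putrescine, was scarce in both groups. Controls read 2.40, 2.32, 2.16, 4.49 and 4.03 CPM and treated samples 1.78, 0.383, 0.762, 0.815 and 0.900 CPM, from only 34 to 72 and 9 to 48 counts per library. The ranges were separated by a small gap between control replicate 3 and puberulic acid replicate 1. The level was 3.28-fold lower at log2 -1.71 ± 0.38 (edgeR quasi-likelihood test, Benjamini-Hochberg adjusted p = 0.00171).

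Oat, ornithine aminotransferase, was the gene without a call. It stood at 153, 193, 189.7, 198 and 234 CPM in controls and 201, 168, 164, 168 and 185 CPM with puberulic acid. The treated values lay inside the control range. The log2 difference was -0.12 with a 95% interval of -0.37 to 0.12 (edgeR adjusted p = 0.34), and with total-count scaling it reversed to 0.38 (edgeR adjusted p = 0.01), under the median of all genes on that scaling.

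Odc1, ornithine decarboxylase, makes putrescine and is the classical control point of the pathway. Its control levels were widely spread, at 1248, 1538, 1308, 914 and 682 CPM, while the treated levels were tightly grouped at 612, 553, 547, 587 and 604 CPM. Control replicate 5 came close to the treated samples but stayed above them. The coefficient of variation was 29.8% in controls and 5.09% in treated samples. The change was log2 -0.97 ± 0.18, or 1.96-fold lower (edgeR quasi-likelihood test, Benjamini-Hochberg adjusted p = 0.000588), and -0.46 with total-count scaling (edgeR adjusted p = 0.0387).

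Srm, spermidine synthase, was measured at 19.3, 17.8, 21.4, 25.4 and 22.5 CPM in controls and 26.9, 25.4, 28.1, 29.3 and 26.4 CPM with puberulic acid. Control replicate 4 and puberulic acid replicate 2 both rounded to 25.4 CPM, so the ranges only just separated. Srm was 1.28-fold higher, at log2 0.35 ± 0.10 (edgeR quasi-likelihood test, Benjamini-Hochberg adjusted p = 0.00993). Sat1, the spermidine/spermine acetyltransferase, was at 257, 254, 269.6, 233 and 221 CPM in controls and 291, 339, 336, 341 and 276 CPM in treated samples. All treated values were above the controls, the nearest pair being control replicate 3 and puberulic acid replicate 5. It was also 1.28-fold higher, at log2 0.36 ± 0.09 (edgeR quasi-likelihood test, Benjamini-Hochberg adjusted p = 0.0047). The Sat1 promoter is shown because Sat1 was the most abundant of the genes that rose. It has 2 GC boxes, one ending at the last base before the start, and no CCAAT or CACGTG.
Sat1 (chrX:155216450-155216699, minus strand): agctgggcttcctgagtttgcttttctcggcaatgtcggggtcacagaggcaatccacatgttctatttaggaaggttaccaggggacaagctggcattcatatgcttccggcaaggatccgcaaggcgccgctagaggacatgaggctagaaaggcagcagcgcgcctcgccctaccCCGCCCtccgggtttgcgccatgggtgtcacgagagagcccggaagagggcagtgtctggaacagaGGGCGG

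The choice of scaling mattered for the small changes. The TMM correction multiplied library totals by 0.827 to 0.848 for controls and by 1.17 to 1.26 for treated samples, and scaling by total counts alone moved the median log2 fold change of all genes from 0.05 to 0.56, a shift of 0.51. On that scaling 56.4% of all genes were called higher and 15.5% lower. Of the 9 enzyme genes, 3 were then called higher and 6 lower, Oat being the addition. Srm and Sat1 were each at 0.86, above the shifted median, and the 6 lower genes remained lower.

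**Figure D2:**
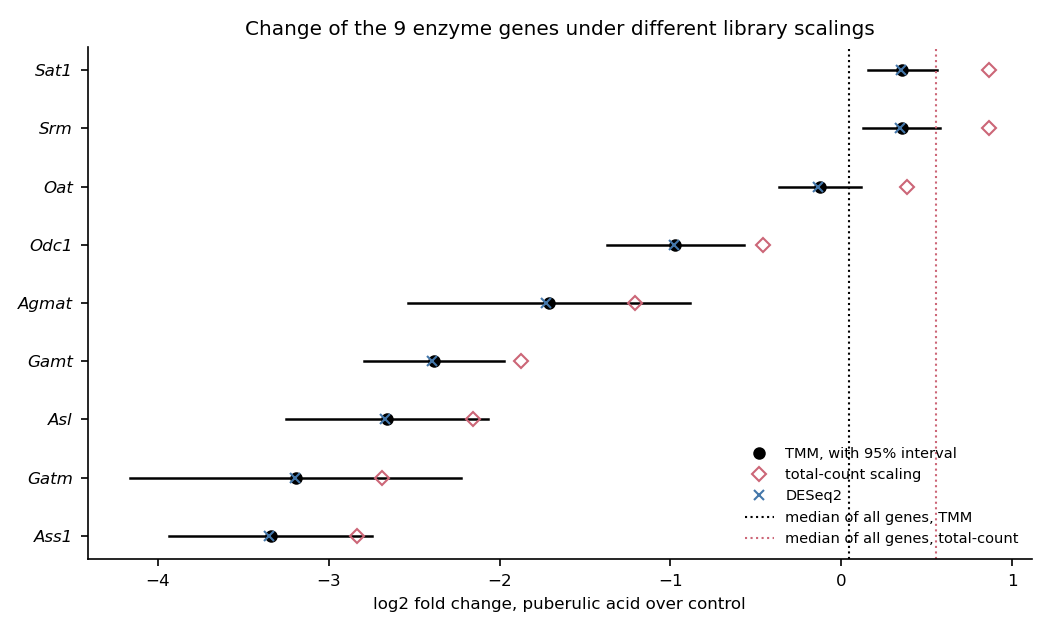
Log2 fold change, puberulic acid over control, of the 9 genes by TMM (black, with 95% interval), total-count scaling (red diamonds) and DESeq2 (blue crosses). Dotted lines mark the median of all genes tested on each scaling. Total-count scaling moves each gene to the right by about the shift of 0.51, which reverses the sign for Oat and for no other of the 9.

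Levels were also compared between genes after division by transcript length (CPM per kilobase of the principal GENCODE transcript). In controls Ass1 led with 2050 ± 546, followed by Odc1 at 515 ± 153, Gatm at 213 ± 83.2 and Sat1 at 213 ± 16.8 CPM per kilobase. Asl (108 ± 41.3) and Oat (89.8 ± 13.4) came next, then Gamt (24.2 ± 6.11), Srm (15.9 ± 2.21) and Agmat (2.19 ± 0.78). Among neighbours, the ranges over samples overlapped for Odc1 and Gatm, Gatm and Sat1, Asl and Oat, and Gamt and Srm. With puberulic acid the order became Sat1 (272 ± 26.5), Odc1 (263 ± 13.4) and Ass1 (202 ± 81.2), whose ranges overlapped, then Oat (82.4 ± 7.21), which overlapped none of the other genes. Gatm (23.3 ± 17.95), Srm (20.3 ± 1.12) and Asl (17.1 ± 5.15) overlapped one another as well, with Gatm at 55.0 in puberulic acid replicate 1 and no order to be read among the 3, above Gamt (4.63 ± 0.39) and Agmat (0.66 ± 0.37).

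Ratios of paired enzymes within a sample do not depend on library scaling. They are log2 ratios of counts, uncorrected for length, so the difference between groups is read and not the ratio itself, and no test was made. Ass1 to Asl, consecutive steps, was 3.78 ± 0.17 in controls and 3.03 ± 0.14 with puberulic acid, a difference of -0.74 with no overlap. Gatm to Gamt was 4.38 ± 0.51 and 3.36 ± 0.86, a difference of -1.02, and here puberulic acid replicate 1 (4.84) lay inside the control range. Without that library the difference was -1.39.

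Odc1 to Sat1, synthesis over breakdown, was 2.15 ± 0.37 in controls and 0.88 ± 0.21 in treated samples, a difference of -1.27 with no overlap. Srm to Sms, the spermidine and spermine synthases, changed from -0.90 ± 0.37 to 0.07 ± 0.22, a difference of 0.97. The groups were fully separated in both ratios, which follows from the single genes and adds nothing to them. Odc1 and Sms lay wholly below the controls, and Sat1 and Srm wholly above.

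**Figure D3:**
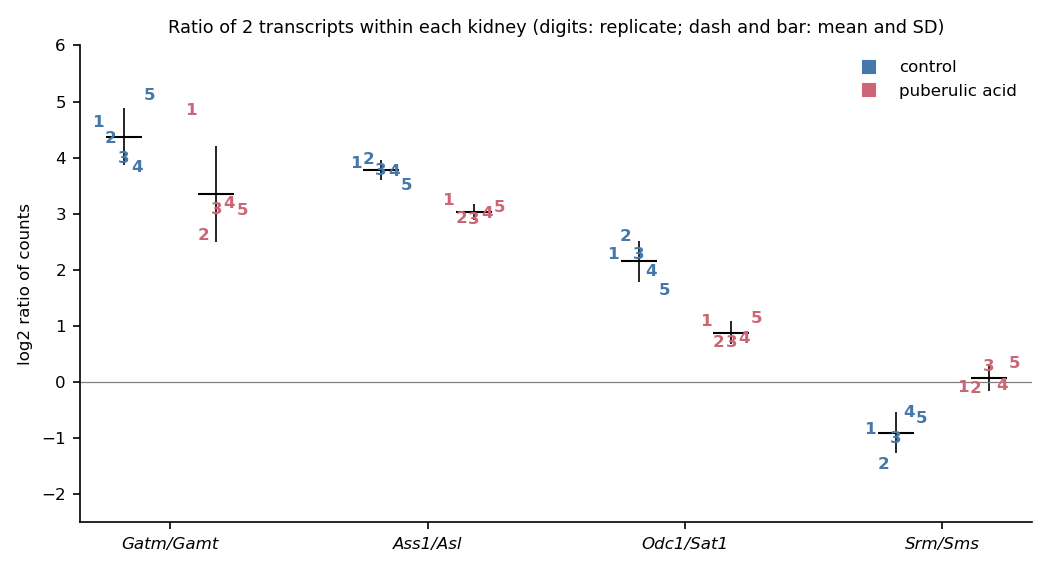
Log2 ratio of counts of 4 gene pairs within each sample, for control (blue digits) and puberulic acid (red digits), with dash and bar for mean and SD (n = 5). The groups are separate for Ass1/Asl, Odc1/Sat1 and Srm/Sms, and overlap for Gatm/Gamt through puberulic acid replicate 1 at 4.84.

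Around these enzymes, 54 further genes of the same pathways were read as 7 lists, of which 46 could be tested. Of the 46, 16 were called higher, 21 lower and 9 not, against the 34.2% higher and 31.1% lower of all genes. Their median log2 fold change was -0.21. With total-count scaling the split was 23 higher and 13 lower, so that 63.9% of calls were higher in place of 43.2%. Over all genes tested the same shares were 78.4% with total-count scaling and 52.4% with TMM, above those of the pathway genes on both scalings.

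In the list of ornithine, proline and glutamate genes, 2 of 6 rose and 4 fell, with a median of -1.42. Aldh18a1, which makes the precursor of proline and ornithine from glutamate, was at 1.37 to 2.85 CPM in controls and 11.7 to 15.9 CPM with puberulic acid, a log2 fold change of 2.67 (edgeR adjusted p = 4.52e-07). The proline-breaking genes fell. Prodh2, which oxidises hydroxyproline, went from 76.4 ± 28.2 to 3.21 ± 4.15 CPM, log2 -4.56 (edgeR adjusted p = 5.82e-05), with puberulic acid replicate 1 at 10.6 CPM and the other 4 at 1.101 to 1.96 CPM. Without replicate 1 it was at log2 -5.84. Prodh, proline dehydrogenase, was at -2.31 (edgeR adjusted p = 3.43e-05) and Aldh4a1, the next enzyme toward glutamate, at -2.27 (edgeR adjusted p = 4.9e-06).

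Of the 7 cationic amino acid transport genes, 3 rose, 3 fell and 1 was not called, with a median of -0.18 and the same counts under total-count scaling. Slc7a1, a broadly expressed arginine importer, was at 5.71 to 7.96 CPM in controls and 33.9 to 40.0 CPM with puberulic acid, log2 2.37 (edgeR adjusted p = 1.44e-08). Slc7a6, a subunit of an arginine and glutamine exchanger, was at 2.05 (edgeR adjusted p = 2.08e-07). Slc7a2, another cationic amino acid importer, was called higher at 1.66 (edgeR adjusted p = 0.00135), although the ranges of the groups overlapped. The 3 lower genes encode transporters of the proximal tubule epithelium. Slc7a7, the basolateral exporter partner, was at log2 -2.53 (edgeR adjusted p = 0.000115), and Slc7a9 and Slc3a1, the subunits of the apical cystine and dibasic amino acid transporter, at -2.13 (2.91e-05) and -2.12 (2.12e-06). Slc3a2, the heavy chain that pairs with Slc7a6 and Slc7a7, was not called (log2 -0.18, edgeR adjusted p = 0.464).

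Among 11 polyamine genes tested, 4 rose and 6 fell, with a median of -0.54. With total-count scaling 4 were higher and 1 lower, since 5 of the 6 lower calls (Sms, Paox, Oaz1, Oaz2 and Slc18b1) were lost and Sat2 alone of the 6 was kept. Smox, spermine oxidase, went from 7.37 ± 2.23 to 28.7 ± 3.99 CPM, log2 1.96 (edgeR adjusted p = 3.6e-06). Amd1, which supplies the aminopropyl donor for spermidine and spermine, went from 62.7 ± 10.6 to 98.2 ± 2.71 CPM, log2 0.65 (edgeR adjusted p = 0.000189). Sms, spermine synthase, went from 39.8 ± 6.21 to 26.1 ± 3.99 CPM, log2 -0.61 (edgeR adjusted p = 0.00159) (-0.10 with total-count scaling, edgeR adjusted p = 0.487). Among the 3 creatine uptake and kinase genes tested, none rose and 2 fell, with a median of -0.56, against 1 higher and 0 lower with total-count scaling.

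Of the 7 arginine, urea cycle and nitric oxide genes tested, 3 rose and 2 fell (median 0.25), or 5 and 2 with total-count scaling. Cps1, Nags, Otc and Slc25a2 were too low to test, and Otc had at most 1 count in any library. Of the 8 genes of methionine salvage and methyl donor supply, 2 rose and 4 fell (median -0.61), or 4 and 4 with total-count scaling. Ahcy, which clears the S-adenosylhomocysteine left by methyltransferases such as Gamt, went from 564 ± 44.3 to 127 ± 39.7 CPM, log2 -2.16 (edgeR adjusted p = 9.78e-07). Of the 4 genes for the hypusine modification of eIF5A, which uses spermidine, 2 rose and none fell (median 0.31), or 4 and 0 with total-count scaling. Over all genes tested, 34.2% were called higher and 31.1% lower. With total-count scaling these shares were 56.4% and 15.5%, and the median was 0.56. Each list is too short for its counts to be read against these shares.

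**Figure D4:**
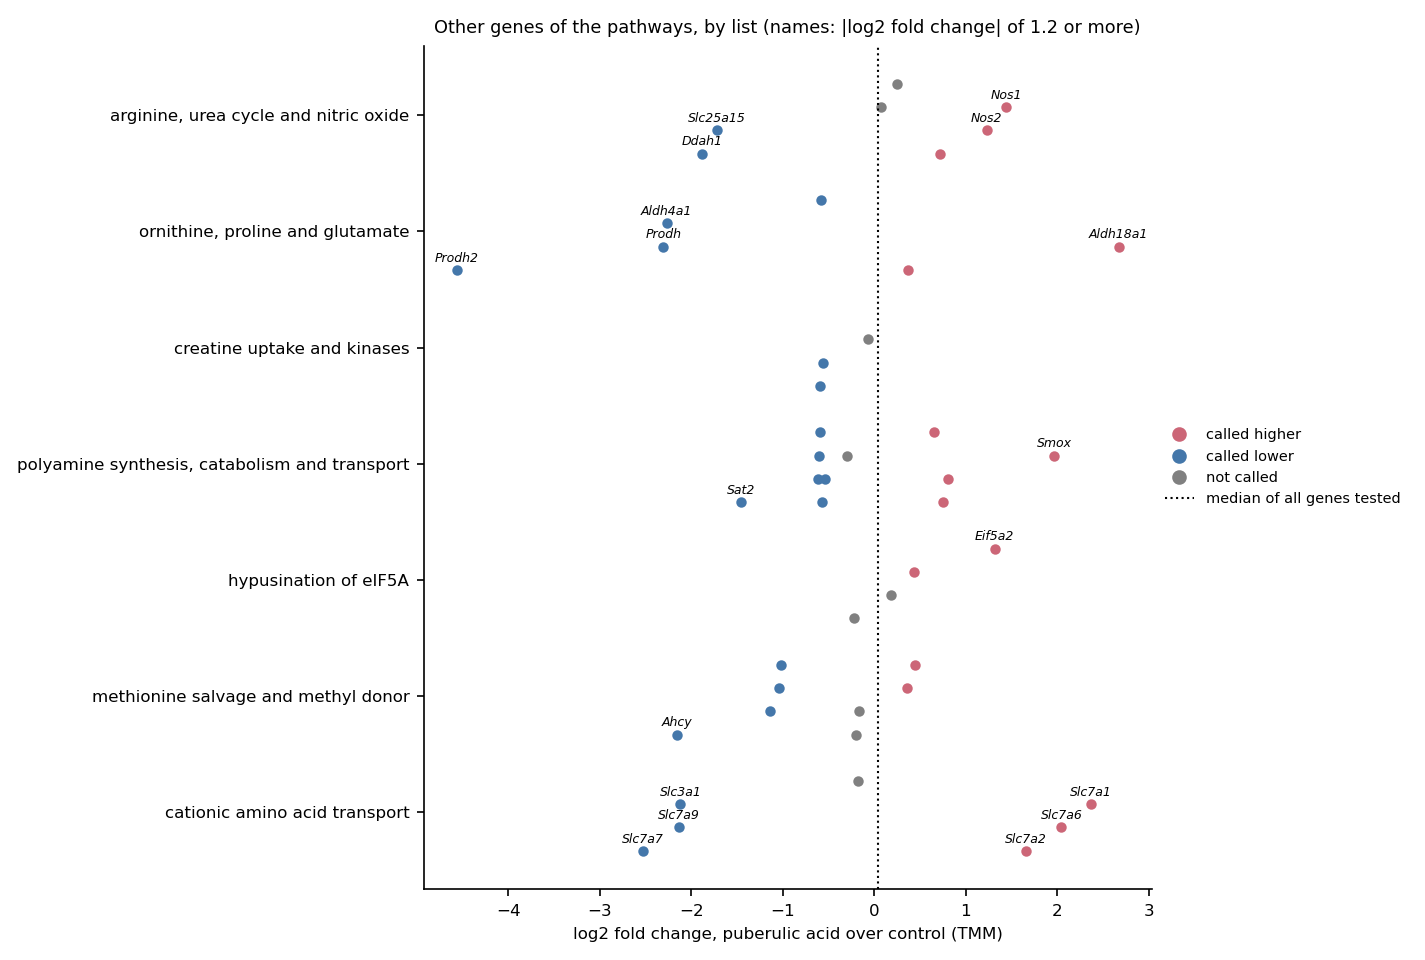
Log2 fold change (TMM), puberulic acid over control, of the 46 tested genes of 7 pathway lists, coloured by call (red higher, blue lower, grey not called). The dotted line is the median of all genes tested, 0.05. Prodh2 at -4.56 and Aldh18a1 at 2.67 lie at the ends of the range. With total-count scaling the points move to the right by about 0.51, and 13 in place of 21 are called lower.

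The 5 controls were not alike for these genes. Control replicate 5 was above replicate 1 by 2.41 times for Gatm, 2.14 times for Ass1 and 2.79 times for Asl. Odc1 ran the opposite way, with a ratio of replicate 5 to replicate 1 of 0.546. The same ratio was 3.60 for Slc5a2, a glucose transporter of the early proximal tubule, and 3.00 for Nphs1, a gene of the glomerular podocyte. It was 0.585 and 0.519 for Slc7a13 and Slc22a30, transporters of the late proximal tubule, and 0.86 for Sat1. The genes Kap and Cyp4a12a ran the same way as Odc1, at 0.655 and 0.690. Among the remaining enzyme genes it was 1.73 for Gamt, 1.68 for Agmat, 1.53 for Oat and 1.16 for Srm. The source of this spread was not tested. Leaving out control replicate 5 gave log2 -2.97 for Gatm and -1.12 for Odc1, both still called lower.

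**Figure D5:**
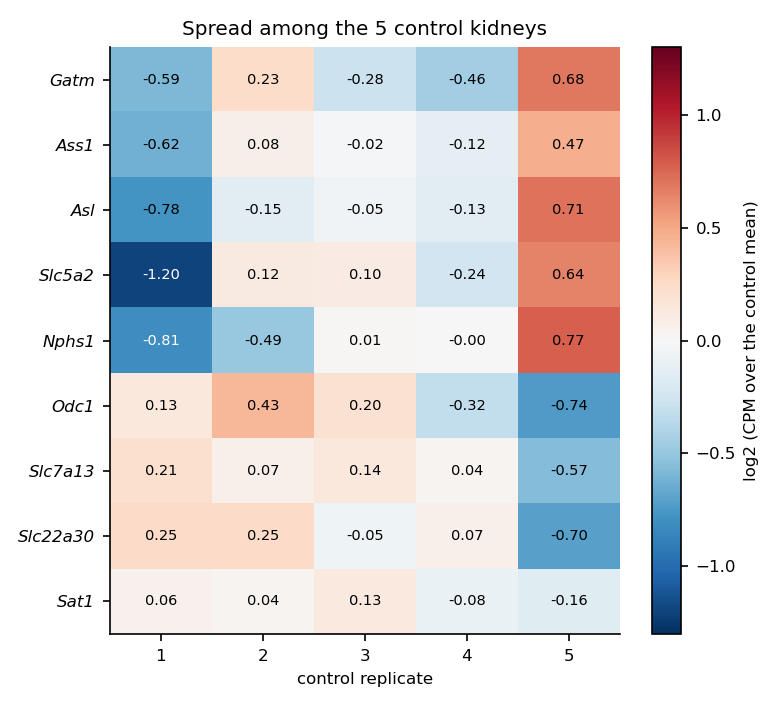
Log2 of CPM over the control mean in each of the 5 control samples, for Gatm, Ass1, Asl, Odc1 and Sat1 among the enzyme genes and for markers of the early (Slc5a2) and late (Slc7a13, Slc22a30) proximal tubule and of podocytes (Nphs1). Gatm, Ass1, Asl, Slc5a2 and Nphs1 are lowest in replicate 1 and highest in replicate 5, and Odc1, Slc7a13 and Slc22a30 are lowest in replicate 5.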

How the data were processed

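Poly(A) RNA of whole kidney was sequenced from strand-specific libraries, per the labels' protocols. The authors deposited a table of estimated counts by gene, with fractional values. The submitters' processing notes name fastp 0.22.0, Salmon 1.10.3 and build GRCm39, and the annotation release is not given in the sources used here. Of 20 sample columns, 10 have names that do not show which supplement lot they hold, and these were not used.

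Counts were rounded, filtered with filterByExpr, TMM-scaled and tested across 16266 genes with edgeR 4.0.16 (quasi-likelihood, robust off; limma 3.58.1, R 4.3.3), 5 against 5, with Benjamini-Hochberg adjustment over all genes. Standard errors are of log2 fold changes. Alternatives were RLE and total-count scaling, 2 other filters, DESeq2 1.42.0, a robust fit, leaving out abundant genes, a replicate block and leaving out each library.

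The genes and all lists were chosen with earlier results of these data known. Some genes of the set and of the lists are not reported here. Pathway genes were named where called and changed by 2 or more on the log2 scale, plus Sms, Smox, Amd1, Slc6a8, Ckb and Prodh2. Further names in the text were chosen after their values were seen, as were the CCAAT and GGGCGG motifs. Transcript lengths come from GENCODE M21 and promoters from RefSeq (GRCm38.p6), matched by symbol. Figures used matplotlib 3.10.9.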

Additional observations from a re-analysis of the deposited data

Results flagged for a closer look

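Puberulic acid replicate 1 stood above the other 4 treated libraries for 3 of the enzyme genes and 1 ratio, by a gap that was a large share of the group's range. Gatm was at 131 CPM there and at 28.5 to 45.9 CPM in the others, a gap of 0.83 of the range. Ass1 was at 589 CPM against 269 to 297 CPM (0.913), and Asl at 62.8 CPM against 30.9 to 38.2 CPM (0.771). The log2 ratio of Gatm to Gamt was 4.84 against 2.62 to 3.18 (0.744). The limit for 5 samples is 0.71, and chance passes it in about 1 of 20 independent groups. The 4 groups that passed, of 26, all rest on this library, and 2 of them share Gatm counts, so their number cannot be read against that share. The same library had the highest summed proximal tubule markers of the treated group, 1433 CPM against 594 to 705 CPM. Its sums were also the highest treated ones for thick ascending limb, distal convoluted tubule, collecting duct principal cell and intercalated cell markers. Its podocyte and endothelium sums lay within the range of the other 4. Its macrophage sum (126 against 216 to 353 CPM) and fibroblast and pericyte sum (386 against 529 to 1390 CPM) were the lowest. Whether these values share a source was not tested.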

How the results depend on the processing

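Calls of the 9 enzyme genes, 2 higher and 6 lower, were the same under all alternatives except total-count scaling, where Oat reversed to a log2 fold change of 0.38 and made 3 higher. That scaling also gave 9179 genes higher and 2526 lower over all genes (5564 and 5058 with TMM) and 13 lower pathway genes in place of 21. Leaving out each library gave 5103 to 5842 genes higher and 4881 to 5395 lower over all genes, and 15 to 17 higher and 21 to 24 lower pathway genes. With the replicate block, 5416 genes were higher and 4909 lower, with 2 and 6 among the enzymes. Same-numbered samples of the 2 groups did not deviate together (r from -0.172 to 0.039). Whether they shared a batch was not tested, and the labels state none. Agmat had the fewest counts of the 9 genes in treated samples, 9 to 48 per library, so its level there is the least precise for depth.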

Other observations

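Regulators around the same enzymes are given next, chosen after their values were seen. Azin1, an antizyme inhibitor that protects ornithine decarboxylase, went from 98.3 ± 21.3 to 172 ± 29.2 CPM (log2 0.81, edgeR adjusted p = 0.00071). Azin2, another antizyme inhibitor, was not called by TMM (log2 0.07, edgeR adjusted p = 0.645, overlapping groups). It was called higher with total-count scaling (0.58), near the median of all genes on that scaling, 0.56. The antizymes Oaz1 and Oaz2, which target ornithine decarboxylase for breakdown, were at log2 -0.57 (edgeR adjusted p = 0.000103) and -0.61 (edgeR adjusted p = 6.36e-05), and total-count scaling called neither (-0.06 and -0.10). Sat2, a relative of Sat1, was lower at log2 -1.46 (edgeR adjusted p = 3.41e-06) while Sat1 was higher.

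Ddah1, which degrades the nitric oxide synthase inhibitor dimethylarginine, went from 334 ± 35.6 to 90.4 ± 20.4 CPM (log2 -1.89, edgeR adjusted p = 4.61e-07). Slc25a15, the mitochondrial ornithine carrier, went from 164 ± 8.43 to 49.8 ± 16.4 CPM (log2 -1.72, edgeR adjusted p = 4.99e-06). Eif5a2, another form of the hypusinated factor eIF5A, went from 7.29 ± 0.91 to 18.2 ± 2.39 CPM (log2 1.32, edgeR adjusted p = 3.33e-06). Eif5a was not called by TMM (0.18) and was called higher with total-count scaling (0.69), where the median of all genes was 0.56.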
